A study of Mus musculus with 6 samples.

Results

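The regions described here lay away from gene starts and carried a peak in both libraries numbered replicate 2 and in neither library numbered replicate 1. Peaks of the 4 anti-HA lists that shared at least 1 bp were merged into 56748 regions. A region was kept if it lay on chromosomes 1 to 19 or X, held a peak of the CDK6-WT 2 list and a peak of the CDK6-K43M 2 list, held none of the CDK6-WT 1 or CDK6-K43M 1 lists, and overlapped no window from 2000 bp before to 200 bp after a transcript start of GENCODE M21. This left 5214 regions, 9.19% of all merged regions and 34.4% (95% Wilson interval 33.6 to 35.2) of the 15159 distal regions found in both replicate 2 lists. The latter share depends on the length of the lists, since it was 59.8% when each was cut to its top 10000 peaks. The members were chosen by the presence and absence of peaks, so their heights in the replicate 2 lists and their lack of a replicate 1 peak are descriptions and were not tested. The absence of a peak from a list does not show the absence of signal.

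The libraries came from mouse BCR-ABL(p185)+ pre/pro B cell lines that were Cdk6-/- and were transduced with an HA-tagged CDK6. In 1 group the tagged protein was wildtype (CDK6-WT, n = 2 libraries) and in the other it carried the kinase-inactivating mutation (CDK6-K43M, n = 2 libraries), so that every library lacked endogenous CDK6. Chromatin was crosslinked, precipitated with an antibody against the HA tag (ab9110) and sequenced, and 2 input libraries of the series were not analysed here. The tagged proteins were overexpressed, and the labels do not say whether libraries of 1 group came from separate cultures or cell lines. Peak lists hold no expression, so the labelled cell type was not checked against its markers. The lists held 34729 to 39797 peaks, and their relative depths, recovered from the lists themselves, were 10.1 and 10.5 treatment reads per kb for CDK6-WT 1 and 2 and 12.04 and 9.56 for CDK6-K43M 1 and 2.

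CDK6 is a cyclin-dependent kinase that drives entry into the cell cycle and has no DNA-binding domain of its own, so that it reaches chromatin through other proteins. Distal elements such as enhancers gather transcription factors that recognise short words in DNA. In the B lineage these include EBF, the factor that specifies B cells, the ETS family with its member PU.1, which is shared with myeloid cells, RUNX1, and the interferon regulatory factors IRF4 and IRF8, which bind with PU.1 at joint ETS-IRF sites. CTCF, by contrast, marks insulators and the anchors of chromatin loops.

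Windows of 201 bp around the summits of 7 members show which of these words the members held. They are the 4 members that ranked highest in the replicate 2 lists, and the highest-ranked members with the PU.1 word, with the EBF word and with both the PU.1 and RUNX words (the last was chosen after the values were seen). The sequences are the plus strand of GRCm38 (mm10) at chr6:117204229-117204429 (near Cxcl12), chr3:107776440-107776640 (near Csf1), chr13:106760291-106760491 (near Ipo11), chr6:52797679-52797879 (intron of Jazf1), chr11:82004916-82005116 (near Ccl2), chr4:103510370-103510570 (near Dab1) and chr4:117478189-117478389 (intron of Rnf220). Capitals mark the words of RUNX (TGTGGTT), ETS (AGGAAGT), PU.1 (GAGGAAGT, which contains the ETS word), EBF (CCCNNGGGA), AP-1 (TGANTCA) and a composite of ETS and IRF (GGAANTGAA), on either strand.
Cxcl12 region: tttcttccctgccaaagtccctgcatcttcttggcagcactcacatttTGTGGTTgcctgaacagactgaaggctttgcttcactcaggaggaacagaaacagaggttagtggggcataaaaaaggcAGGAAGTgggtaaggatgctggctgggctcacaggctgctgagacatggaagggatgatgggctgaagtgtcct
Csf1 region: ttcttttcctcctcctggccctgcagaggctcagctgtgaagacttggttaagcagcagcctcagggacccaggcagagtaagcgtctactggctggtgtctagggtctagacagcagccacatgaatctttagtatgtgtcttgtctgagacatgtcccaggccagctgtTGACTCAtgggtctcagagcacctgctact
Ipo11 region: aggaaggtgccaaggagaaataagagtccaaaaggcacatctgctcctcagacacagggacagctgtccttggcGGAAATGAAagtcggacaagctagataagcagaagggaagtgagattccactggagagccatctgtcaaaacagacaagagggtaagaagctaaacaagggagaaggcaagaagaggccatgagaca
Jazf1 region: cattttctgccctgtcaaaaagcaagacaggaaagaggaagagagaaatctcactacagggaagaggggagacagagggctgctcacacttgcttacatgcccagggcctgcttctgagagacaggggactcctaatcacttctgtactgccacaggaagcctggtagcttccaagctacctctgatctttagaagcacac
Ccl2 region: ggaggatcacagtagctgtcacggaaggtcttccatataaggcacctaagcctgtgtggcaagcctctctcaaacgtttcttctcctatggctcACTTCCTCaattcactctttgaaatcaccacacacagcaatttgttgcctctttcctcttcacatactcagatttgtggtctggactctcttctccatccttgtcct
Dab1 region: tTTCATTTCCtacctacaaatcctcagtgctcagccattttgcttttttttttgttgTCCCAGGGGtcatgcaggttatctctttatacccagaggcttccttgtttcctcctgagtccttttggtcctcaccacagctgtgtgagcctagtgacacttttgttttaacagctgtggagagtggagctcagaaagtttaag
Rnf220 region: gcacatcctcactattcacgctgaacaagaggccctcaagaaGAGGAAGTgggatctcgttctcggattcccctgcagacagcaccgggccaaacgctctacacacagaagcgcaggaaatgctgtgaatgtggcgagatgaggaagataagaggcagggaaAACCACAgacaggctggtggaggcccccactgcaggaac

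The ETS word of the Cxcl12 region began 27 bp after the summit and its RUNX word 52 bp before it. In the Ccl2 region the PU.1 word began 6 bp before the summit, on the minus strand. The Ipo11 region held the ETS-IRF composite 26 bp before the summit, the Csf1 region held an AP-1 word, and the Jazf1 region held none of the 6 words. For contrast, the window below is that of the highest-ranked distal region in both replicate 1 lists only that had the CTCF word within 50 bp of its summit. It is the plus strand of chr11:59525373-59525573, over an exon of Zkscan17, and its CTCF word is in capitals.
Zkscan17 region: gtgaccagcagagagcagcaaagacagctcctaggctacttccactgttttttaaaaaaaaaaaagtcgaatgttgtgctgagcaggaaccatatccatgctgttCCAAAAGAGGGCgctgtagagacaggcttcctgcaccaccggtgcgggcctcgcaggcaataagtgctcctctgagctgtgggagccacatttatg

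The members were neither the weakest nor the strongest regions of the replicate 2 lists. Fold enrichment is the value of the peak caller, the scaled reads at the summit with 1 added, over the local background with 1 added. A percentile is the rank of a peak's −log10 q within its own list. The median fold enrichment of the members was 5.58 in CDK6-WT 2, with a range of 2.42 to 27.7, and 5.50 in CDK6-K43M 2, with a range of 2.52 to 30.8. The median percentiles were 47.3 and 52.0. Thus the typical member was a peak of middle rank in both lists. The 8148 distal regions found in all 4 lists ranked higher in the same libraries, with medians of 73.4 and 75.9. The 4546 distal regions in both replicate 1 lists only ranked lower in their own lists, with medians of 35.5 in CDK6-WT 1 and 41.5 in CDK6-K43M 1.

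The upper end of the distribution also set the members apart from the regions of replicate 1. Of the members, 283 (5.43%) stood in the top 10% of the CDK6-WT 2 list and 354 (6.79%) in the top 10% of the CDK6-K43M 2 list, and 188 stood in both. Among the regions of both replicate 1 lists only, 27 stood in the top 10% of CDK6-WT 1 and 30 in that of CDK6-K43M 1. None of these replicate 1 regions reached the top 1% of its lists, whereas 22 and 26 members did. At the lower end, 371 members were in the lowest 25% of both replicate 2 lists. These values come from the same peaks that chose the regions and carry no test.

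**Figure D1:**
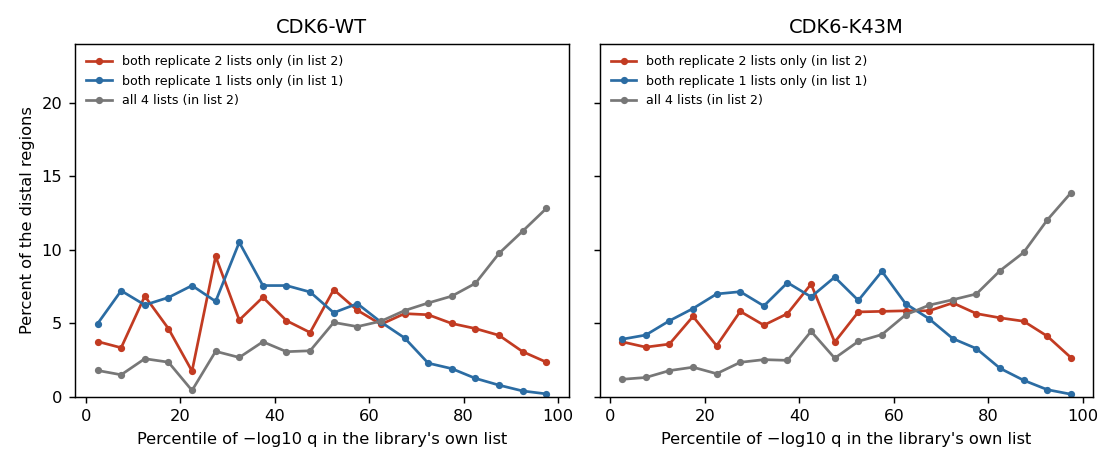
Percentile of −log10 q within the library's own list (x axis, bins of 5) against the percent of distal regions in each bin (y axis), for CDK6-WT (left) and CDK6-K43M (right). Members (red) spread over the whole range around medians of 47.3 and 52.0, regions of both replicate 1 lists only (blue) thin out towards the top, and regions of all 4 lists (grey) pile up there.

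At the summits the members held a median of 17 reads in CDK6-WT 2 and 15 in CDK6-K43M 2, over a median local background of 1.82 and 1.79 reads. The median width was 368 bp, between the 286 bp of the regions in both replicate 1 lists only and the 642 bp of the regions in all 4 lists. The members covered 2.24 Mb. The summits of the replicate 2 lists lay a median of 48 bp apart, and 2705 members (51.9%) had them within 50 bp. Across the members the percentiles in CDK6-WT 2 and CDK6-K43M 2 had a Spearman correlation of 0.573 (n = 5214 regions, which are not replicates), against 0.776 over the regions in all 4 lists.

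**Figure D2:**
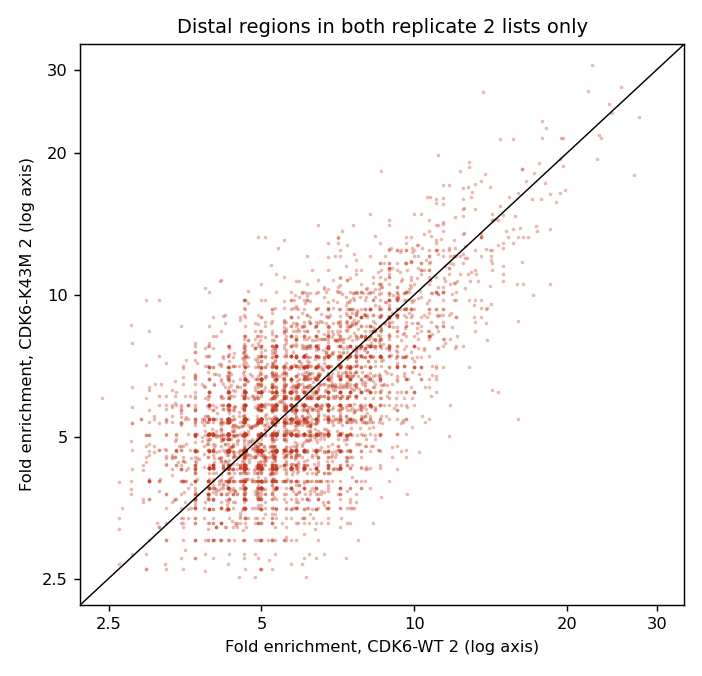
Fold enrichment of each of the 5214 members in CDK6-WT 2 (x axis, log scale) and CDK6-K43M 2 (y axis, log scale), 1 point a region, with the line of equality. The points lie along the line from about 2.5 to 30 in both libraries.

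Among the 10 members with the highest mean percentile, 9 are described here, from loci with varied functions. The highest was an intergenic region of 1103 bp on chromosome 6, 35.8 kb from the nearest start, that of Cxcl12, a chemokine that holds B-cell precursors in the bone marrow. Its fold enrichment was 22.4 in CDK6-WT 2 and 30.8 in CDK6-K43M 2. The second lay 16.1 kb from Csf1, the growth factor of macrophages, with 25.5 and 27.6. The third overlapped an exon of the long noncoding RNA gene Gm30411, and its nearest protein-coding start was that of Ipo11, an importer of nuclear proteins. It had the highest fold enrichment of all members in CDK6-WT 2, 27.7, and 23.8 in CDK6-K43M 2. The region in the intron of Jazf1, a zinc finger gene, reached 24.5 and 24.2. The next lay in an intron of Htr7, a serotonin receptor, with 21.9 and 27.05. A region 10.4 kb from the start of Tiparp, a poly-ADP-ribose polymerase, followed with 24.2 and 25.3.

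The remaining 3 members lay near or in genes of signalling and the cell surface. A member 30.6 kb from Ccl2, a chemokine for monocytes, had 23.1 and 21.8. A region 113 kb from Crim1, a membrane protein that binds bone morphogenetic proteins, had 23.3 and 21.5, and a region in the intron of Emb, a cell surface glycoprotein, had 19.6 and 21.5. These 9 members were high in both replicate 2 libraries, with summit reads between 55 and 78. The region near Csf1 lay 769 bp from a replicate 1 peak and that near Tiparp 1003 bp, while the 5 near Cxcl12, Ipo11, Htr7, Crim1 and Emb lay more than 60 kb from any.

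At the other end, 4 of the 5 members with the lowest mean percentile had fold enrichments of 2.78 to 3.24 in CDK6-WT 2 and 2.62 to 2.82 in CDK6-K43M 2. They lay in introns of Ankrd11 and Glis1, over an exon of Spg20 and 16.8 kb from Gm5426. Their summits held 12 to 15 reads over backgrounds of 3 to 4. The regions just outside the rule were 5 distal regions with a peak in both replicate 2 lists and a peak in CDK6-K43M 1 at a −log10 q of 1.35, close to the lower end of that list. They lay near or in Sipa1l1, Pxdc1, Rpgrip1, Zc3h7a and Ppdpf. Their percentiles ran from 4.13 to 86.0 in CDK6-WT 2 and from 49.7 to 97.5 in CDK6-K43M 2. A weak replicate 1 peak thus kept out regions that ranked anywhere from low to very high in replicate 2.

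Some members lay near replicate 1 peaks and others far from any. In all, 231 had one within 200 bp and 947 (18.2%) within 1000 bp. The median distance to the nearest replicate 1 peak was 12.9 kb, and 829 members (15.9%) lay more than 100 kb from any.

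The comparison of CDK6-WT 2 with CDK6-K43M 2 at the members asked whether regions of this kind differ with the kinase activity of CDK6. Each variant had 1 library here, so no test was possible and the values compare these libraries only. The reads at the summit per depth differed by a median log2 ratio (CDK6-WT 2 over CDK6-K43M 2) of −0.01, with quartiles of −0.25 and 0.24. CDK6-WT 2 was at least 1.5-fold higher at 312 members (5.98%), beside 6.13% of all 24994 regions with a peak in both lists. CDK6-K43M 2 was at least 1.5-fold higher at 302 members (5.79%), beside 5.11% of all such regions. The first share was slightly below that of all regions and the second slightly above it.

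The largest differences between these libraries were of modest read numbers. An intergenic member 31.1 kb from 1190002N15Rik on chromosome 9 had 37 reads in CDK6-WT 2 and 13 in CDK6-K43M 2, a log2 ratio of 1.37 after scaling to depth. In the opposite direction, an intergenic member 77.3 kb from Bcor, a transcriptional corepressor, had 10 reads in CDK6-WT 2 and 25 in CDK6-K43M 2, a log2 ratio of −1.46. A member in an intron of Shroom2, a regulator of cell shape, had 35 reads in CDK6-WT 2 and 13 in CDK6-K43M 2. A member 3.33 kb from the histone gene Hist1h1c had 12 and 26. The members at the extremes included 2 on chromosome X, those near Bcor and in Shroom2.

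The members lay within genes more often than the distal regions of both replicate 1 lists only and of all 4 lists. Introns held 2916 members (55.9%), exons 415 (7.96%) and intergenic space 1883 (36.1%). The share in introns was 11.7 percentage points higher than among the regions of both replicate 1 lists only (95% Newcombe interval 9.75 to 13.7) and 7.19 points higher than among the regions of all 4 lists (5.46 to 8.92). The regions of the CDK6-WT 2 and CDK6-K43M 2 lists alone were like the members, with 54.9% and 56.95% in introns. The members were also farther from gene starts, with a median distance to the nearest protein-coding start of 19.8 kb, against 11.0 kb and 15.3 kb. Of the members, 27.2% lay at least 50 kb from a start, against 13.4% of the regions of both replicate 1 lists only and 20.8% of those of all 4 lists. These intervals, like the others given here, cover counting error over regions only, and regions of 1 library are not replicates. At promoters the share without a replicate 1 peak was smaller, since 1045 of the 9826 promoter regions in both replicate 2 lists (10.6%) lacked a replicate 1 peak.

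Words of ETS, PU.1 and RUNX factors were several times as frequent at the summits of the members as 1000 bp to either side. The PU.1 word was in 448 of the 5214 summit windows (8.59%) and in 1.45% of the flank windows, a ratio of 5.93 (95% interval 4.95 to 7.11). The ETS word was in 932 (17.9%) against 5.31%, a ratio of 3.37 (3.05 to 3.72). The RUNX word was in 743 (14.3%) against 5.18%, a ratio of 2.75 (2.48 to 3.06). By comparison, windows of the same length at 93145 protein-coding transcript starts held the PU.1 word in 1.96%, the ETS word in 5.87% and the RUNX word in 3.03%. The EBF word was in 407 windows (7.81%) against 2.47% of the flanks, a ratio of 3.16 (2.71 to 3.67), and in 4.67% of the start windows. The short IRF word AANNGAAA was common everywhere, in 31.7% of summits, 24.2% of flanks and 14.3% of start windows. The ETS-IRF composite, which can overlap the ETS and IRF words and was added after the data were seen, was in 352 windows (6.75%) against 2.23% of the flanks and 1.35% of the start windows.

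The CTCF word was at the level of the flanks in the members. It was in 64 summit windows (1.23%) and in 1.17% of the flank windows, a ratio of 1.05 (0.777 to 1.42), beside 1.54% of the start windows. In the regions of both replicate 1 lists only, the same word was in 1158 of 4546 summit windows (25.5%) and in 2.09% of the flanks, a ratio of 12.2 (10.5 to 14.15). The share in members minus that in these regions was −24.2 percentage points (95% Newcombe interval −25.6 to −23.0). In the regions of all 4 lists it was in 3.67%. The word of the insulator protein was thus frequent in the regions listed in replicate 1 only and at the level of the flanks in those listed in replicate 2 only.

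The other words separated the sets by smaller amounts. Relative to the regions of both replicate 1 lists only, the members held the IRF word more often by 11.97 percentage points (10.2 to 13.7), the RUNX word by 5.89 points (4.64 to 7.13), the ETS word by 4.10 points (2.66 to 5.55) and the PU.1 word by 3.93 points (2.95 to 4.91). The EBF word went the other way, at 7.81% of members, 11.6% of the replicate 1 regions and 15.0% of the regions of all 4 lists. The members and the regions of all 4 lists held RUNX, PU.1 and composite words at shares whose difference had an interval that spanned 0, from −1.58 to 0.864 points for RUNX, −1.31 to 0.651 for PU.1 and −0.860 to 0.886 for the composite. The ETS word was less frequent in members than in the regions of all 4 lists by 2.66 points, with an interval of members minus these regions of −4.01 to −1.29, and the IRF word was more frequent by 4.50 points (2.91 to 6.09). Words of promoters were scarce in the members. The NRF-1 word GCGCATGCG, of the factor that drives genes of mitochondrial respiration, was in 0 of 5214 summit windows, which allows a share of up to 0.0575% as the limit of 3 counts and 0.0736% as the upper Wilson bound, and the SP1 word GGGGCGGGG was in 0.230% against 0.681% of the flanks. At the transcript starts, which the rule kept out of the members, these were in 1.297% and 8.71% of the windows. Among the regions of both replicate 1 lists only they were in 0.286% and 1.83%, and among those of all 4 lists in 0.295% and 0.970%. The NRF-1 word was also in 0 windows of the CDK6-WT 1 list alone and of the CDK6-WT 2 list alone.

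**Figure D3:**
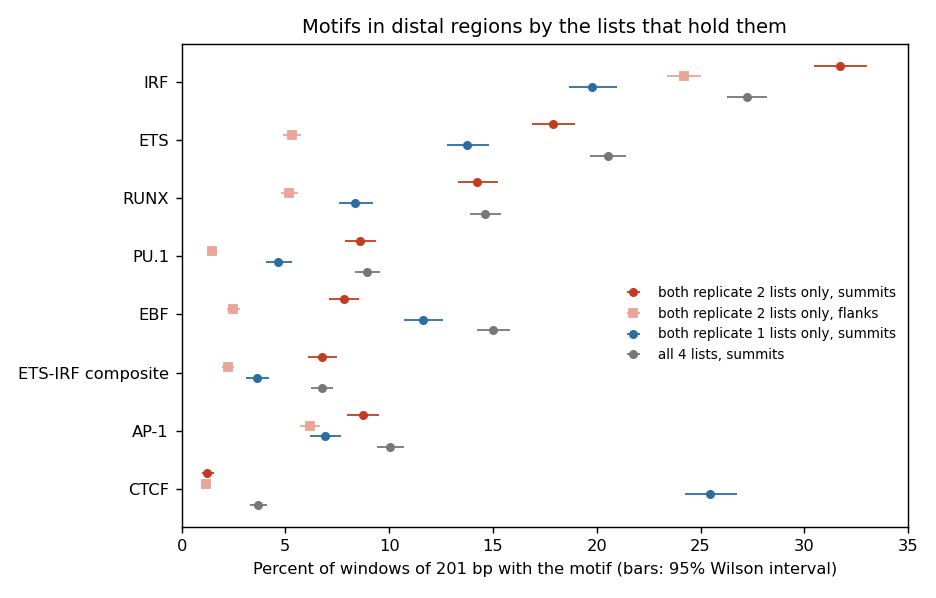
Percent of windows of 201 bp that held each word (x axis) for the summits and flanks of the members (red, pink squares), the summits of regions in both replicate 1 lists only (blue) and in all 4 lists (grey), with 95% Wilson intervals. The CTCF word is near 1% in members and their flanks and at 25.5% in the replicate 1 regions, whereas the PU.1, ETS and RUNX words stand well above the flanks in members.

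**Figure D4:**
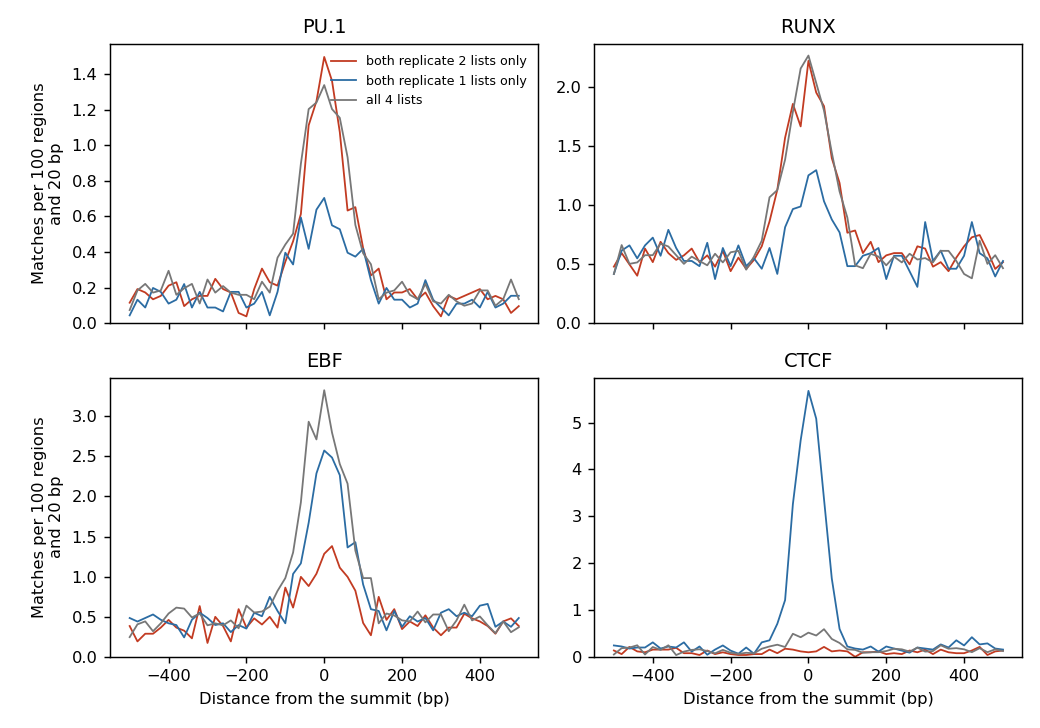
Matches per 100 regions and 20 bp (y axis) by distance from the summit in bp (x axis) for the words of PU.1, RUNX, EBF and CTCF, in members (red), regions of both replicate 1 lists only (blue) and regions of all 4 lists (grey). The PU.1, RUNX and EBF words of the members peak at the summit, and the CTCF word peaks there in the replicate 1 regions but is flat in the members.

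Higher members held the ETS, PU.1 and RUNX words more often. Members were split by mean percentile into 4 sets of equal size. From the lowest to the highest set, the PU.1 word went from 6.29% to 10.7%, the RUNX word from 11.4% to 18.3% and the ETS word from 14.9% to 20.3%. The ETS-IRF composite went from 4.29% to 8.82%. The CTCF word did not follow this order, at 1.38% in both the lowest and the highest set, and the EBF word was at 6.75% and 7.29%. At least 1 of the ETS, RUNX and EBF words was in 35.8% of the members, so most members held none of these exact words. Both the PU.1 and the RUNX word were in 47 members.

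Words of 7 bases counted without reference to any factor led to the same family. Among 5450 words, each taken with its reverse complement, and of those in at least 1% of members, the ETS word AGGAAGT had the highest ratio of summits to flanks, 3.37. Next came GAACCGA, with a ratio of 3.16 but in only 1.15% of the members, and the related word AACCGAA with 3.13. The fourth, CACTTCC, had a ratio of 3.102 and overlaps the ETS word on the other strand. The fifth was GAGGAAC, with 3.004, and the RUNX word stood seventh.

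Distal regions found in 1 list alone were not used to choose the members and showed how far these features follow the replicate number. The CTCF word was in 19.1% of the regions of the CDK6-WT 1 list alone and in 25.8% of those of CDK6-K43M 1, but in 2.57% and 2.01% of those of CDK6-WT 2 and CDK6-K43M 2. The RUNX word was in 7.42% and 7.74% of the replicate 1 regions and in 10.5% and 9.42% of the replicate 2 regions. The IRF word was in 21.4% and 20.4% against 25.6% and 26.4%. The libraries of replicate 2 did not overlap those of replicate 1 for any of these words, whichever the variant. Such a lack of overlap was common among the words searched and not particular to CTCF, RUNX and IRF. It was also seen for the AP-1 word, at 6.75% and 6.72% in replicate 1 and 8.12% and 8.69% in replicate 2, and for the STAT, MYC and SP1 words. The promoter-type ETS, E2A, Ikaros, C/EBP, GATA, MEF2, FOX and CRE words showed it too. With 2 libraries against 2, an exact two-sided permutation test over the 6 assignments cannot give a p below 0.33. This is the value it gave for each of the words named so far. The PU.1 word did overlap, at 5.36% and 3.09% in replicate 1 and 6.33% and 5.18% in replicate 2 (exact p = 0.667). So did the ETS and EBF words and the ETS-IRF composite, each with the same exact p. The remaining words, of NRF-1, NFY, OCT, NF-kB, TCF/LEF, MYB and NFIL3/HLF, overlapped as well. Within each variant, however, the PU.1 word was higher in replicate 2, from 5.36% to 6.33% for CDK6-WT and from 3.09% to 5.18% for CDK6-K43M. The ETS word was also higher within each variant, from 13.1% to 13.75% and from 10.02% to 12.7%, and the EBF word was lower, from 10.7% to 7.49% and from 7.06% to 5.64%. These differences within a variant rest on 1 library against 1 and were not tested.

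The distal regions of all 4 lists also bore on the replicate numbers through their heights. Over these 8148 regions the median log2 ratio of reads per depth (replicate 2 over replicate 1) was −0.17 for CDK6-WT and −0.16 for CDK6-K43M. The 299 regions with the CTCF word were lower, at −0.58 and −0.65, and the 1223 with the EBF word were at −0.38 and −0.34. The 550 with the ETS-IRF composite were at 0.01 and 0.07. The CTCF and EBF words, which were less frequent in the members than in the replicate 1 regions, thus went with lower reads in replicate 2 also where all libraries had a peak. For CTCF, EBF and the composite both variants gave the same order. Regions with the ETS word, which was more frequent in the members than in the replicate 1 regions, were near the level of all, at −0.167 and −0.145. Those with RUNX were at −0.08 and −0.114, and those with PU.1 at −0.129 and −0.03. The 79 with the SP1 word were low, at −0.72 and −0.66. These are descriptions over regions that share their libraries.

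The members were poorer in CpG than the distal regions of both replicate 1 lists only and of all 4 lists. The mean GC content of the summit windows was 47.5% ± 5.73 (SD over 5214 regions), against 50.9% in the regions of both replicate 1 lists only and in those of all 4 lists. At least 5 CpG were found in 13.1% of the member windows (12.2 to 14.0), against 30.1% (28.7 to 31.4) and 27.5% (26.5 to 28.5). Windows without any CpG made up 15.5% of the members and 8.54% and 8.21% of the other sets. In the regions of 1 list alone, windows with at least 5 CpG made up 22.1% and 22.3% in replicate 1 and 12.3% and 12.2% in replicate 2, so that the low CpG content was shared with the regions of single replicate 2 lists. Repeats were not frequent, since 2.70% of the member windows were soft-masked over more than 50% of their length, against 7.92% of the replicate 1 regions.

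The members were spread unevenly over the chromosomes. For each chromosome the members were taken as a share of the members and the distal regions of all 4 lists together. This share was 71.7% on chromosome X (147 members, 65.2 to 77.4) and 50.7% on chromosome 13 (46.6 to 54.8), and it was lowest on chromosomes 5, at 26.4% (23.5 to 29.4), and 12, at 29.0% (24.4 to 34.1). The other chromosomes lay between 31.5% and 44.1%. The corresponding share of the regions in both replicate 1 lists only was highest on chromosome 12, at 58.5%, and on chromosome 5, at 44.5%. Chromosome X held 2.82% of the members, against 0.792% of the replicate 1 regions and 0.712% of the regions of all 4 lists.

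The local background of the peaks, which the peak caller takes from the control, moved with these shares on chromosomes 5, 12 and X. On chromosome 13 this depended on the measure. As a mean over the peaks of a chromosome, relative to the lowest background of the list, it was 1.84 and 1.85 on chromosome 5 in CDK6-WT 1 and CDK6-K43M 1, against autosome medians of 1.39 in both. In CDK6-WT 2 and CDK6-K43M 2 it was 1.305 and 1.295 on chromosome 5, at the autosome medians of 1.31. Chromosome 12 was at 1.395 and 1.387 in replicate 1 but at 1.17 in both replicate 2 lists, the lowest of the autosomes there. Chromosome X was at 1.11 and 1.13 in replicate 1 and at 1.24 in both replicate 2 lists. Chromosome 13, with the second highest share of members, was near the autosome medians, at 1.391 and 1.392 in replicate 1 and 1.31 and 1.32 in replicate 2. At the regions of all 4 lists, however, its mean log2 ratio of background (replicate 2 over replicate 1) was 0.066 for CDK6-WT, the highest of the autosomes. For CDK6-K43M this ratio was 0.011, below those of chromosomes 18 and 19. The replicate numbers thus differed in background on chromosomes 5, 12 and X, in the same way for both variants. On the relative scale of depth, the control came to 9.776 per kb behind CDK6-WT 1 and CDK6-K43M 1 alike. It came to 9.652 behind CDK6-WT 2 and 9.563 behind CDK6-K43M 2. Whether the lists of a replicate number shared a control was not tested. Variants that shared one would not be separate measures of the background, nor would their correlations with it. Over 20 chromosomes the share of members and the log2 ratio of background (replicate 2 over replicate 1, at regions of all 4 lists) had a Pearson r of 0.697 for CDK6-WT and 0.664 for CDK6-K43M, and Spearman's rho was 0.626 and 0.620. Without chromosomes 5, 12 and X (n = 17) r was 0.575 and 0.443 and rho was 0.390 and 0.380. The median log2 ratio of reads at the same regions had an r of 0.896 and 0.753 with the share of members over the 20 chromosomes. The part of the background in the choice of members was not tested.

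**Figure D5:**
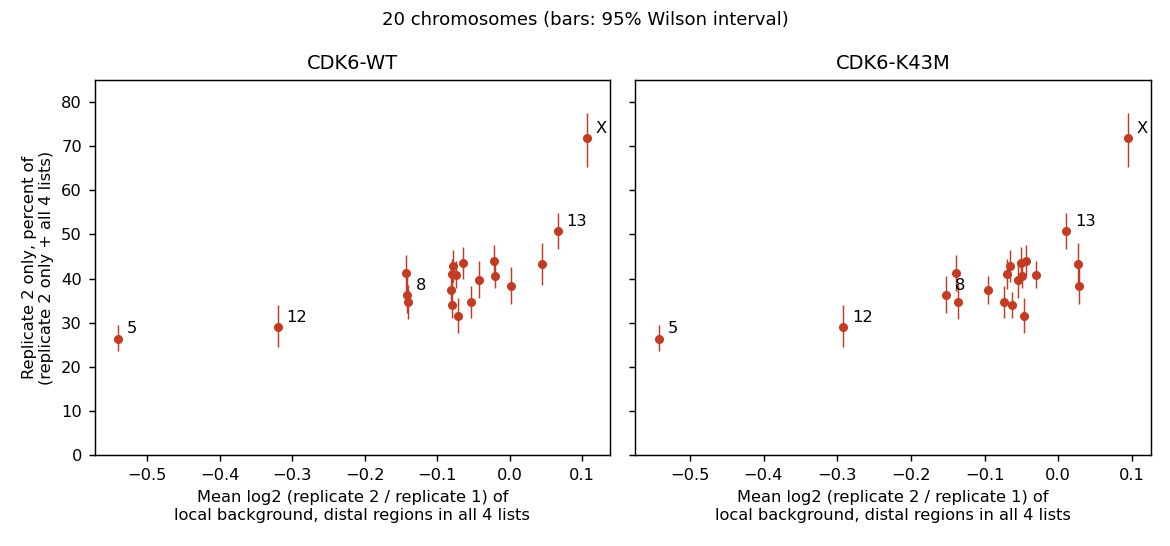
Mean log2 ratio of local background, replicate 2 over replicate 1, at distal regions of all 4 lists (x axis) against the percent of members among members and regions of all 4 lists (y axis, 95% Wilson intervals), 1 point a chromosome, for CDK6-WT (left) and CDK6-K43M (right). Chromosomes 5 and 12 lie at the lower left and chromosome X at the upper right, at 71.7%.

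The shares of the words were nearly the same without the chromosomes that stood out. Without chromosomes 5, 8, 12, 13 and X, a selection made after the data were seen, 4270 members were left, of which 8.50% held the PU.1 word, 13.9% the RUNX word and 1.24% the CTCF word.

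Members lay in groups at some loci. Another member lay within 12.5 kb of 1542 members (29.6%) and within 100 kb of 3321 (63.7%). The bin of 1 Mb with the most members was chr7:109000001-110000000, with 18 members, beside 4 distal regions of all 4 lists and 0 of both replicate 1 lists only. There St5, a regulator of signalling by small GTPases, held 7 members, and Stk33, a kinase, and Trim66, a chromatin reader, held 3 each. The bin at chr2:153000001-154000000 had 16 members, 5 of them in Xkr7 and 4 in Nol4l, and the bin at chr3:87000001-88000000, which holds the Fc receptor-like genes Fcrl1 and Fcrl5, also had 16. Unlike the first, these bins had 7 and 6 regions of both replicate 1 lists only.

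Among protein-coding gene models, Gm20388 held the most members, 31, but this model spans 4435 kb on chromosome 8 and many other genes. The next 3 were level at 11 members. Ankrd11 (158 kb), a chromatin regulator, held 11 members and 5 regions of all 4 lists. Nfia (346 kb), a transcription factor, held 11 members and 3 regions of all 4 lists. Neither had a region of both replicate 1 lists only. The model of Fgfr2, a growth factor receptor, spans 2961 kb and held 11 members, 18 regions of all 4 lists and 9 of both replicate 1 lists only.

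Genes of the signalling that BCR-ABL uses often lay near members. A gene was counted if a member lay in its body or within 50 kb, which held for 24.3% of all 21728 protein-coding genes. By the same count, 34.9% of all genes had a region of all 4 lists and 32.4% one of both replicate 1 lists only. Of 18 genes of BCR-ABL and JAK-STAT signalling, 12 had a member (66.7%, 43.8 to 83.7). Jak1, a tyrosine kinase of cytokine receptors, had 9, together with 6 regions of all 4 lists and none of both replicate 1 lists only. Its highest member, in an intron 20.8 kb from the start, had a fold enrichment of 12.4 in CDK6-WT 2 and 16.9 in CDK6-K43M 2. Members also lay near Bcl2l1, an inhibitor of apoptosis (4), Cish, a feedback inhibitor of cytokine signalling (2), and Bcl6, a transcriptional repressor (1). The same list had 15 genes with a region of all 4 lists and 14 with a region of both replicate 1 lists only, so its high count was not particular to the members. In gene bodies alone, 5 of the 18 genes had a member (27.8%), beside 8.84% of all genes. Within 100 kb, 14 had one (77.8%), beside 37.0% of all genes. Genes differ in length, and the counts were not adjusted for it.

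The B-lineage lists had members near 9 of 20 transcription factors (45.0%, 25.8 to 65.8) and near 8 of 20 genes of the pre-B cell receptor, recombination and the B-cell surface (40%, 21.9 to 61.3). Ikzf1, the gene of Ikaros, had 6 members and Tcf4, an E protein, had 4. Irf8 had 3, the highest of them 39.1 kb upstream with fold enrichments of 9.96 and 10.5, and Irf4 had 2. Syk, a kinase downstream of the pre-B cell receptor, had a member 43.4 kb upstream with 7.04 and 10.2. Regions of both replicate 1 lists only were near 12 genes of each of these lists. Regions of all 4 lists were near 19 and 16 genes of them. An exception was Pou2af1, a coactivator of octamer factors, which had 3 members and no region of all 4 lists.

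Cell cycle and myeloid genes gave counts in the same range. Members lay near 6 of 16 genes of cell cycle entry (37.5%, 18.5 to 61.4). Among them were Ccnd1, the gene of cyclin D1, with 4 members, and Cdk6 itself, with 2. The strongest near Ccnd1, 31.2 kb upstream, had fold enrichments of 9.83 and 9.33, and the stronger in Cdk6 had 4.70 and 4.18. Of 16 myeloid genes, 8 had a member (50%, 28.0 to 72.0), and 7 had a region of all 4 lists. A member in an intron of S100a7a held the PU.1 word and lay 12.6 kb upstream of S100a8, a marker of granulocytes, with fold enrichments of 6.42 and 5.84. It was also counted for the neighbouring granulocyte gene S100a9. Members lay near 3 of 18 AP-1 and immediate early genes (16.7%), 2 of 15 genes of T and NK cells (13.3%) and 4 of 20 subunits of oxidative phosphorylation (20.0%). The interval of each of these shares held the 24.3% of all genes, and so did those of the cell cycle and pre-B cell receptor lists. In contrast, 14 of the 18 AP-1 and immediate early genes had a region of all 4 lists and 11 had one of both replicate 1 lists only.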

How the data were processed

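ChIP-seq peak lists of 4 anti-HA libraries were analysed, grouped by variant and replicate number as titled. Per the labels and the study's methods, the authors checked reads with FastQC 0.11.5, trimmed them with Trimmomatic 0.36, aligned them to mm10 with BWA 0.7.15, filtered them with SAMtools 1.3.1 and bedtools, and called peaks for each library with MACS2 2.1.0. The deposited lists give a fold enrichment (a ratio over the local background), a −log10 p-value, a −log10 q-value, a score taken from the −log10 q, and other information, the summit offset. They hold no read totals. Reads and background at each summit were recovered by solving fold and −log10 p together, to within 0.001 of the −log10 p, and 100% of the peaks gave whole reads. Depths are relative only. The recovery, the merging and the search for words were checked on made-up lists and sequences.

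Sequence was read from GRCm38 and annotation from GENCODE M21. A region was assigned to exon, intron or intergenic space in this order, and its summit was that of the replicate 2 peak with the higher −log10 q. The text names the 10 highest and 5 lowest members by mean percentile, 5 regions just outside the rule, members with the most extreme ratios, the genes and 1 Mb bins with the most members, and up to 5 genes of a list. Of the members this rule names, 2 are not reported here. 8 gene lists and 25 words were used, and the CTCF consensus was searched by its core letters. Gene lists and words were chosen by hand and all 143 gene symbols matched. The members and lists were chosen with earlier results of these data known. Shares carry 95% Wilson intervals. Alternatives were thresholds on −log10 q, list length, merging, windows, chromosomes, the distance to a gene and leaving out each library. Python 3.11.15, numpy 2.4.6, pandas 2.3.3, scipy 1.17.1 and matplotlib 3.10.9 were used.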

Additional observations from a re-analysis of the deposited data

How the results depend on the processing

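Of the 1317 values recomputed under 23 alternatives, 1056 stayed within the 95% interval or 1.5 times the count of the reported value. The other 261 moved beyond it. A reversal of direction could be called only for a ratio of summits to flanks whose 95% interval excluded 1, and none of these ratios reversed. The excess of the PU.1 word at member summits over flanks ranged from 3.86 to 9.29-fold, that of RUNX from 1.957 to 3.86, that of ETS from 2.35 to 4.42 and that of EBF from 2.21 to 3.93, and CTCF stayed between 0.772 and 1.38. With a minimum −log10 q of 10, 2118 members were left, 39.97% of the distal regions of both replicate 2 lists lacked a replicate 1 peak, and 18.2% of members held the RUNX word and 11.6% the PU.1 word. With the top 10000 peaks of each list these were 2851, 59.8%, 18.1% and 10.7%, and 34.8% of members were intergenic. With a minimum of 5 the RUNX share was 15.8% and the PU.1 share 9.97%. Merging peaks within 500 bp gave a share without a replicate 1 peak of 32.3%, 38.7% intergenic, 16.02% with RUNX and 9.58% with PU.1. Leaving out members within 1000 bp of a replicate 1 peak left members as 28.1% of the same 15159 distal regions. Only members were left out there, so this share could only fall. Of the members left, 38.2% were intergenic, 15.7% held RUNX and 9.49% PU.1. Starts left out to 5000 bp gave 43.4% intergenic and 9.43% with PU.1. The share without a replicate 1 peak was 36.25% with lists of equal length and 35.35% with summits extended by 100 bp. Leaving out members with soft-masked windows was an alternative chosen after the data were seen. It left members as 33.5% of the 15159 distal regions, a share that again could only fall. Windows of 50 bp to each side gave 8.92% RUNX, 5.79% PU.1 and 0.633% CTCF, and windows of 200 bp gave 19.4%, 10.9% and 1.98%, since a longer window holds more words. The cause of the other changes was not tested. A fold of 2 in place of 1.5 left 0.345% of members higher in CDK6-WT 2, beside 0.484% of all 24994 regions with a peak in both lists. It left 0.518% higher in CDK6-K43M 2, beside 0.376% of all such regions. The larger share of members was thus that of CDK6-K43M 2 at a fold of 2 and that of CDK6-WT 2 at 1.5. Fold enrichment in place of reads gave 7.63% and 7.19%, beside 7.99% and 6.79% of all such regions.

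Leaving out 1 library in turn gave 5758 to 10580 members, a share without a replicate 1 peak of 37.8% to 46.9%, 35.2% to 36.1% intergenic, 11.3% to 14.4% with RUNX, 6.60% to 8.68% with PU.1 and 1.27% to 1.68% with CTCF. The number rose to 10580 without CDK6-WT 2 and to 8712 without CDK6-K43M 2, because a single replicate 2 list then sufficed. No paired analysis was possible because the values over members come from no test, and in the test of regions in 1 list alone the replicate number is itself what was compared. The lists hold no reads where no peak was called, so signal below the threshold in replicate 1 cannot be seen, and with 2 libraries a replicate number the number cannot be told apart from cell line, culture or control.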
